A study of Bos taurus with 32 samples.

Results

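Caruncles (CAR) and the endometrium between them (ICAR) of normally fertile cows were compared for gene expression on 16 of the 32 arrays of the series, 8 of CAR and 8 of ICAR. All 16 came from the 4 cows called non-RB, and the other 16 arrays came from 4 repeat breeder (RB) cows. The CAR array was paired with the ICAR array of the same label number and the same uterine horn, and the difference in the horn on the side of the corpus luteum (ipsilateral) was averaged with that in the other horn (contralateral) within a number, so that each comparison rested on 4 numbers (n = 4). The animals were non-lactating Japanese Black cows, and tissue was taken after slaughter on cycle Day 15. RB cows had failed repeatedly to conceive after insemination although the uterus and ovaries were healthy on palpation. Non-RB cows had conceived, were carrying a pregnancy that was then ended with a prostaglandin F2α analogue (cloprostenol), and had cycled normally before slaughter, so the non-RB uterus had carried an early pregnancy. CAR was dissected out first and ICAR was cut off afterwards, from the middle of each horn, and each piece was a bulk sample that holds every cell type in it. The labels number the arrays 1 to 4 in each zone and horn but do not state that a shared number is the same cow.

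The bovine endometrium carries rows of raised, gland-free caruncles, where the cotyledons of the placenta attach and form placentomes. Between them lies the intercaruncular endometrium, whose tubular glands open to the lumen and secrete the histotroph that feeds the conceptus before attachment. The uterine surface and the gland necks hold secretory and ciliated epithelial cells, and the caruncle is made mostly of dense stroma under a surface epithelium.

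The array carries probes of 60 bases, many of which the files name only by a clone, an accession or an old symbol, so the first 30 bases are shown for 6 probes on which the results turn. The files call the RSPH1 probe TSGA2, the CFAP299 probe CB437706, the SPDEF probe pdef, the BPIFB1 probe C20orf114 and the FBN2 probe BI774535. All bases are in lower case because no stretch within them was singled out, and the genome position of the probes was not analysed here.
RSPH1: gaggaggagacactgataactgtcattcca
CFAP299: gaatgactcctataaccagaagcaaatcag
SPDEF: caggagacatctggacccccgagttgggaa
BPIFB1: agtgtgggagccagcgctgtaatctgtccc
IL1A: caaagtgccttttccattgtcatgaacttc
FBN2: gtgaggctgcctttaaaataatcagatgtg

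Several arrays stood apart. Across the 12844 probes tested, the CAR minus ICAR differences of numbers 1, 3 and 4 correlated with each other at 0.310 to 0.387, whereas those of number 2 correlated with the other numbers at -0.251, -0.00216 and -0.213. On the CAR contralateral array of number 2 the 100 spots of a single GAPDH sequence had an SD of 1.32 on the log2 scale and 351 spots carried an outlier flag. The same spots had an SD of 0.873 on the ICAR contralateral array of number 1, with 100 flagged spots. These are called the uneven arrays. Among RB cows, the contralateral pair labelled number 3 correlated with every other RB pair at -0.422 to -0.772. Its median log2 difference of ciliated cell markers was 2.86 against -2.05 without it, so this pair ran opposite to the other RB pairs. Whether its zone labels were exchanged was not tested. RB values are given without this pair unless stated. The 16 arrays correlated with each other at 0.917 to 0.994, and no pair was identical.

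No probe was called different between CAR and ICAR at an adjusted p under 0.05 (limma, Benjamini-Hochberg), 0% of 12844, and the smallest adjusted p was 0.302. The methods' t-test, an unpaired test, also called 0 of them after Benjamini-Hochberg adjustment and passed 531 at an unadjusted p under 0.05 over 8 against 8 arrays. At an unadjusted p under 0.05, 339 probes were higher in CAR (2.64%) and 343 higher in ICAR (2.67%), which is 5.31% together, close to the 5% that the threshold alone would pass. At a fold of 2 or more as well, 72 probes were higher in CAR and 154 in ICAR. The gene values below are therefore measured differences that did not pass adjustment with all 4 numbers, and the values without number 2 are given separately. Only 4 of the 8 horn pairs had CAR and ICAR on the same slide, that of number 1 ipsilaterally, of number 3 contralaterally and both of number 4. None was of number 2, whose CAR and ICAR arrays were on different slides and in different scan sessions in both horns. In the same-slide pairs alone 351 probes were called, 134 higher in CAR and 217 higher in ICAR. The shared slide and the absence of number 2 cannot be told apart there. With the slide as a block over the 16 arrays 4 were called, all higher in ICAR. That fit had no term for the number and counted the 2 horns of a number as separate samples. The unpaired test of the methods, given above, also left out the number and counted the 2 horns as separate samples. In bulk samples, fewer cells of a type and less RNA per cell cannot be told apart.

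The 12 leading genes on the ICAR side, those with the largest differences by the naming rule, included 3 of the listed ciliated cell markers, RSPH1, DYDC2 and LRRC23. Levels are given for numbers 1 to 4 as log2 intensity, set against each array's 75th percentile and averaged over the horns. RSPH1, a radial spoke head protein of motile cilia, was at -5.18, -6.37, -6.15 and -5.52 in CAR and at -2.42, -3.88, -4.64 and -3.46 in ICAR. Every ICAR value lay above every CAR value, and the log2 difference of CAR minus ICAR was -2.20 ± 0.26 (SE, n = 4), a 4.61-fold higher level in ICAR with an adjusted p of 0.302 in limma. In number 2 this difference was -0.04 in the ipsilateral horn and -4.95 in the contralateral horn, where the CAR array is an uneven one. Without the uneven arrays the mean log2 difference was -1.67. The CAR level of number 2 was -4.16 ipsilaterally, above the ICAR level of number 3, and -8.57 on the uneven array. The lack of overlap thus rests on the uneven array. RSPH1 was well above background on 7 of 8 CAR arrays, as was CFAP299.

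CFAP45, a protein inside the microtubules of the axoneme, was at -3.75, -3.94, -4.33 and -3.41 in CAR and at -0.42, -2.32, -2.36 and -1.18 in ICAR. The zones did not overlap, and the log2 difference was -2.29 ± 0.30 (SE, n = 4; adjusted p = 0.353 in limma), the largest toward ICAR among the 12 leading genes. Number 2 was at -0.18 ipsilaterally and -3.07 contralaterally, and the mean was -1.96 without the uneven arrays. CFAP299, a cilia and flagella associated protein, was at -5.76, -7.33, -5.95 and -5.83 in CAR and at -3.93, -5.12, -4.43 and -3.39 in ICAR. Its zones did not overlap either, but number 2 was at 0.61 ipsilaterally and -5.01 contralaterally as a log2 difference. The mean of -1.999 ± 0.230 (SE, n = 4) became -1.44 without the uneven arrays. The CAR level of number 2 was -4.97 ipsilaterally, above the number's ICAR level of -5.12, and -9.68 on the uneven array. Here too the lack of overlap rests on the uneven array. LRRC23, also a radial spoke protein, differed by -1.95 ± 0.28 (SE, n = 4) without overlap, with ICAR higher in all 8 horn pairs.

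Of 18 listed markers of ciliated cells, 11 were tested. All 11 were higher in ICAR on average, against 46.9% of all probes tested, 10 had an unadjusted p under 0.05 (2.67% of all probes tested in this direction), and 8 were higher in ICAR in all 4 numbers (5.33%). The median log2 difference of the list was -1.42 against 0.02 over all probes tested, and by number it was -2.63, -0.32, -1.92 and -1.94. Number 2 was thus nearest to 0. In the 4 pairs that shared a slide the list's median was -2.27 for number 1, -2.74 for number 3, and -1.10 ipsilaterally and -2.71 contralaterally for number 4. The 10 markers ran from -2.20 for RSPH1 to -1.32 for TEKT2, a tektin of the ciliary microtubules, and included the axonemal dynein chain DNAI1 at -1.37. TPPP3, a tubulin polymerization promoting protein, was at -0.28 and did not pass. CCDC113, a protein of the ciliary base, was at -2.11 with all numbers and at -3.40 without number 2. Leading genes outside the list included ZMYND10 at -1.86 and DNAAF1 at -1.78, both needed to assemble the dynein arms of cilia. On CAR arrays CCDC113 and DNAI1 were well above background on 4 of 8 and ZMYND10 on 5 of 8, so part of their CAR levels lie at or near background.

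**Figure D1:**
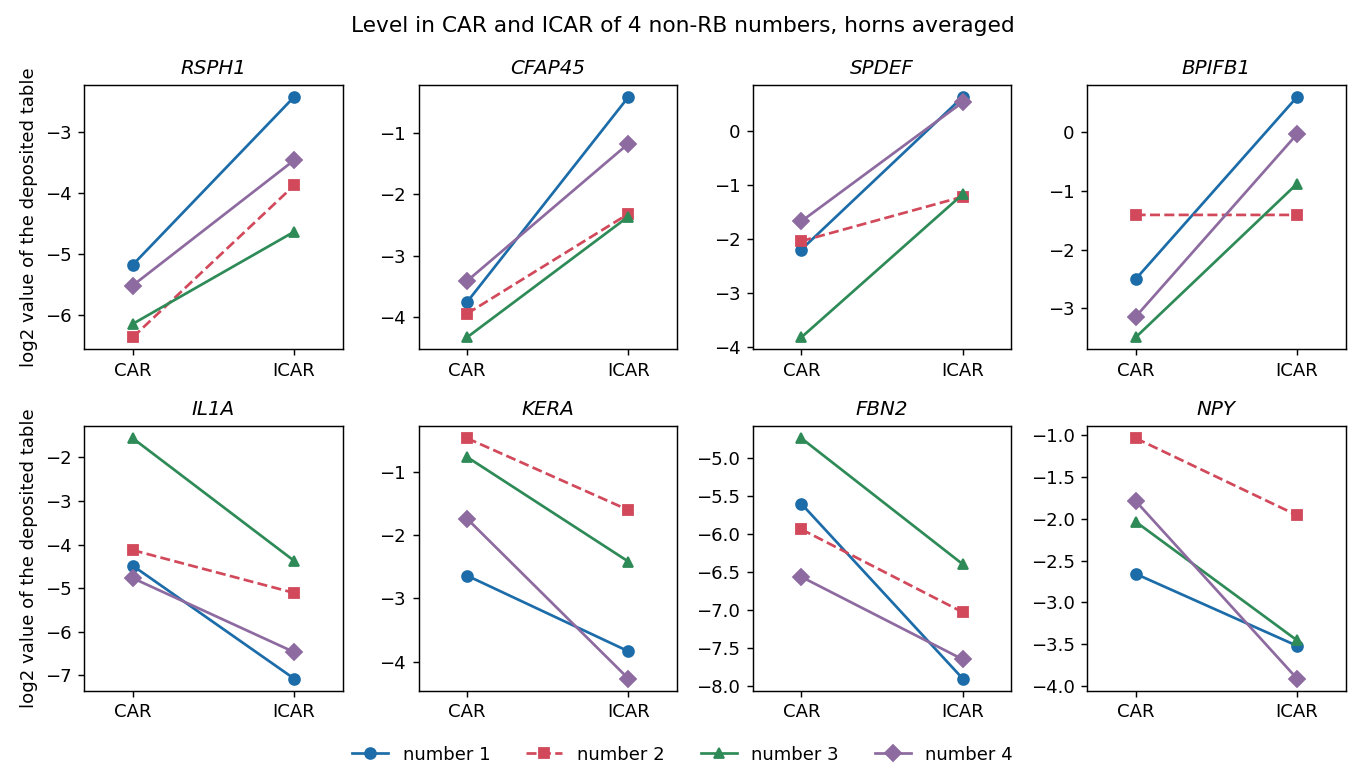
Levels of RSPH1, CFAP45, SPDEF, BPIFB1, IL1A, KERA, FBN2 and NPY in CAR and ICAR of the 4 non-RB numbers, as log2 intensity set against each array's 75th percentile and averaged over the horns. Lines join the zones of a number and number 2 is dashed. The first 3 genes have no overlap between the zones, which for RSPH1 rests on the uneven CAR contralateral array of number 2. The BPIFB1 line of number 2 is flat at -1.41.

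Among markers of the glandular epithelium, 3 were well below their ICAR level in CAR on average. SPDEF, an ETS transcription factor of secretory epithelium, was at -2.20, -2.05, -3.83 and -1.68 in CAR and at 0.63, -1.22, -1.18 and 0.53 in ICAR on the log2 scale. No ICAR value fell within the CAR values, and the log2 difference was -2.13 ± 0.35 (SE, n = 4; adjusted p = 0.386 in limma). BPIFB1, a secreted protein of the BPI fold family, was at -2.50, -1.41, -3.50 and -3.15 in CAR and at 0.61, -1.41, -0.87 and -0.03 in ICAR. Number 2 showed no difference and made the zones overlap, and the mean log2 difference was -2.21 ± 0.52 (SE, n = 4). FOXA2, a transcription factor required for uterine glands, was at -1.06, 0.16, -1.97 and -0.49 in CAR and at 1.94, -0.37, 0.43 and 1.18 in ICAR, so that number 2 ran the other way and the mean log2 difference was -1.63 ± 0.53 (SE, n = 4). These were the 3 of 13 tested gland markers with an unadjusted p under 0.05, against 2.67% of all probes tested in this direction. Over the list 11 of 13 were higher in ICAR on average and the median log2 difference was -0.46, with -0.65, 0.12, -0.48 and -0.35 by number. SERPINA14, the uterine serpin of the glands, had a log2 difference of 0.36 and CHGA, chromogranin A, one of 0.25, and neither passed.

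Of 16 tested markers of epithelium in general, 12 were higher in ICAR on average and 3 had an unadjusted p under 0.05, all higher in ICAR, against 2.67% of all probes tested. These were the tight junction claudins CLDN7 at -0.81 ± 0.21 and CLDN1 at -0.74 ± 0.20 (SE, n = 4) on the log2 scale, and the protease inhibitor SPINT2 at -0.52 ± 0.20. The epithelial keratins did not pass, with a log2 difference of -0.29 for KRT8, -0.17 for KRT19 and 0.03 for KRT7. The list's median log2 difference was -0.33. The mean level of its members overlapped between the zones, at -0.49 to 0.52 among the CAR numbers and -0.20 to 0.81 among the ICAR numbers.

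The 12 leading genes on the CAR side had log2 differences from 1.19 to 2.02. IL1A, a proinflammatory cytokine, was at -4.48, -4.13, -1.56 and -4.77 in CAR and at -7.07, -5.11, -4.37 and -6.47 in ICAR. CAR was higher in all 8 horn pairs, but the zones overlapped because numbers differed in level, and the log2 difference was 2.02 ± 0.33 (SE, n = 4; adjusted p = 0.386 in limma), a 4.06-fold higher level in CAR. KERA, keratocan, a small leucine-rich proteoglycan that binds collagen, was at -2.64, -0.47, -0.77 and -1.74 in CAR and at -3.84, -1.61, -2.42 and -4.27 in ICAR. Its log2 difference was 1.63 ± 0.28 (SE, n = 4). FBN2, the microfibril protein fibrillin 2, was at -5.60, -5.94, -4.74 and -6.56 in CAR and at -7.90, -7.03, -6.40 and -7.65 in ICAR, a log2 difference of 1.53 ± 0.26, with signal well above background on 7 CAR and 5 ICAR arrays of 8. Again each number was higher in CAR while the zones overlapped.

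NPY, the neuropeptide Y precursor, was at -2.66, -1.04, -2.04 and -1.79 in CAR and at -3.52, -1.96, -3.45 and -3.91 in ICAR, with a log2 difference of 1.33 ± 0.27 (SE, n = 4) and CAR higher in all 8 horn pairs. The others on the CAR side ran from GLRB, a glycine receptor subunit, at 1.19 to ADAMTSL3, an ADAMTS-like matrix protein, at 1.55. They included the imprinted gene MEST at 1.47 and the 14-3-3 protein SFN at 1.26, in which number 1 gave 3.67 and 3.42 and no other number exceeded 1.03. ADCY1, an adenylate cyclase, was at 1.35 but at -0.03 after normexp background correction, and was well above background on 2 of 8 ICAR arrays. Of the 24 leading genes the zones did not overlap in 11, all of them higher in ICAR. Over all probes tested it was 0.631% with ICAR above CAR and 0.195% with CAR above ICAR. The leading genes were chosen for large differences of the same direction in these values, so a higher share is built into the choice. For RSPH1, CFAP299, DYDC2, C13H20orf85 and TMPRSS2 among the 11, the lack of overlap rested on the uneven CAR array of number 2. Number 2 gave the smallest difference in 8 of the 12 CAR genes and 9 of the 12 ICAR genes.

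Most stromal and matrix genes were higher in CAR on average, by small amounts. Of all probes tested 6823 of 12844 were higher in CAR on average, and 2.64% toward CAR and 2.67% toward ICAR passed an unadjusted p under 0.05. CXCL12, a chemokine of stromal cells, was the single stroma marker of 11 tested with an unadjusted p under 0.05, at a log2 difference of 0.48 ± 0.20 (SE, n = 4), and 9 of the 11 were higher in CAR on average with a median of 0.21, while 3 were higher in CAR in all 4 numbers (6.77% of all probes tested). That median was 0.02 without the uneven arrays. Of 34 collagen and matrix genes, 26 were higher in CAR on average, with a median log2 difference of 0.21. TNC, the matrix glycoprotein tenascin C, at 1.20 ± 0.50 and MFAP4, a microfibril associated protein, at 0.59 ± 0.20 passed an unadjusted p under 0.05 toward CAR, and SMOC1, a calcium-binding matrix protein, at -1.08 ± 0.40 toward ICAR. TNC in number 2 was at -0.43 and -1.29 in the horns, against the direction of the others, and its mean without number 2 was 1.89. The fibrillar collagens COL1A1, COL1A2 and COL3A1 were at 0.47, 0.37 and 0.30 and did not pass. Among 35 matrix proteases and inhibitors MMP19 at 0.74 and MMP2 at 0.62 passed unadjusted, a share near the 5.31% of all probes either way. The inhibitor TIMP1 was at 0.38. No smooth muscle marker of 11 passed, with the intermediate filament desmin (DES) at 0.60.

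Receptors and enzymes of the response to ovarian hormones were read against the 5.31% of all probes that passed an unadjusted p under 0.05, and 1 of 15 receptor genes and 3 of 17 prostaglandin genes did. ESR2, estrogen receptor beta, was at -4.49, -3.98, -6.64 and -4.85 in CAR and at -1.92, -3.67, -4.50 and -2.97 in ICAR, a log2 difference of -1.73 ± 0.37 (SE, n = 4) in which number 2 gave the smallest value. It was the steroid and oxytocin receptor gene that passed. The progesterone receptor PGR was at 0.09, estrogen receptor alpha (ESR1) at 0.28 and the oxytocin receptor OXTR at -0.17. Among 17 prostaglandin genes, the prostaglandin E2 receptors PTGER3 at 0.93 ± 0.23 and PTGER4 at 0.67 ± 0.23 were higher in CAR and the aldo-keto reductase AKR1C4 at -1.30 ± 0.41 higher in ICAR. PTGS2, the inducible cyclooxygenase, was at -0.18.

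Growth factor genes were read against the 5.31% of all probes tested that passed an unadjusted p under 0.05 either way. IGF2 was at 0.49 ± 0.20 (SE, n = 4) and was the 1 of 13 genes of the IGF system to pass. In the ipsilateral horn alone it was at -0.02. IGF1 was at 0.71 ± 0.37 and did not pass. Of 22 Wnt and patterning genes, the hedgehog ligand IHH at -1.65 ± 0.42, the R-spondin receptor LGR4 at -0.74 and the ligand WNT2B at -0.52 were higher in ICAR, and the Wnt inhibitor SFRP2 at 0.52 was higher in CAR. FOXL2, a forkhead factor, was at 0.55, and WNT5A at -0.22. Of 23 genes of the TGF-beta, activin and BMP group ID3 at 0.68, INHA at 0.55 and FSTL1 at 0.54 passed unadjusted toward CAR and ID4 at -0.75 toward ICAR. FGF2, a fibroblast growth factor, at 0.49 was the 1 of 27 further growth factor genes to pass, and its probes differed in sign. The counts for the IGF system and the further growth factors are near the share over all probes.

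Transport and defence genes split between the zones. They were read beside the 2.64% of all probes tested that passed an unadjusted p under 0.05 toward CAR and 2.67% toward ICAR. SLC38A4, an amino acid transporter, was at 1.15 ± 0.22 (SE, n = 4) with CAR higher in all 8 horn pairs and 5 of 8 ICAR arrays well above background, and the cationic amino acid transporter SLC7A2 was at 0.68, while the sugar transporter SLC2A12 at -0.93 and the nucleotide sugar transporter SLC35A3 at -0.58 were higher in ICAR, out of 36 tested. IL1B, the other major interleukin 1 ligand, was at 0.91 ± 0.24, and the eosinophil chemokine CCL24 was at -1.01 ± 0.25. Complement C5 was at -7.49, -7.82, -9.17 and -9.23 in CAR and at -6.49, -6.74, -6.87 and -6.81 in ICAR. The measured log2 difference was -1.70 ± 0.31 (SE, n = 4), but C5 was well above background on only 3 of 8 CAR and 6 of 8 ICAR arrays, so its size rests largely on CAR spots not well above background. Of 24 complement and innate defence genes, 5 passed an unadjusted p under 0.05 toward ICAR, among them the elastase inhibitor PI3 at -1.01 and complement factor I (CFI) at -0.92, and 1 toward CAR, the complement component C2, at 0.49, beside 2.67% and 2.64% of all probes tested. Of 21 cell cycle genes 18 were higher in CAR on average, against 6823 of 12844 probes tested, but only CCNE2, a cyclin, at 0.62 passed unadjusted.

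Markers of other cells in the tissue gave no member past an unadjusted p of 0.05 in the tests of limma, beside 5.31% of all probes tested. They numbered 16 for endothelium, 19 for T and NK cells, 7 for B and plasma cells, 11 for macrophages, 6 for MHC class II and 4 for red blood cells. Against that share, a count of 0 in lists of 4 to 19 members does not show that the zones are alike. Their median log2 differences ran from -0.15 for red blood cells to 0.08 for T and NK cells. Normexp moved the median of all probes by -0.108, which is more than the T and NK, macrophage and MHC class II medians, and these had the other sign there. The joining chain of immunoglobulin, JCHAIN, was at -1.04 ± 0.92 (SE, n = 4) and CAR was higher in 4 of 8 horn pairs. The mean level of the T and NK list was between -4.83 and -4.15 in the CAR numbers and between -4.62 and -4.30 in the ICAR numbers, so the zones overlapped.

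**Figure D2:**
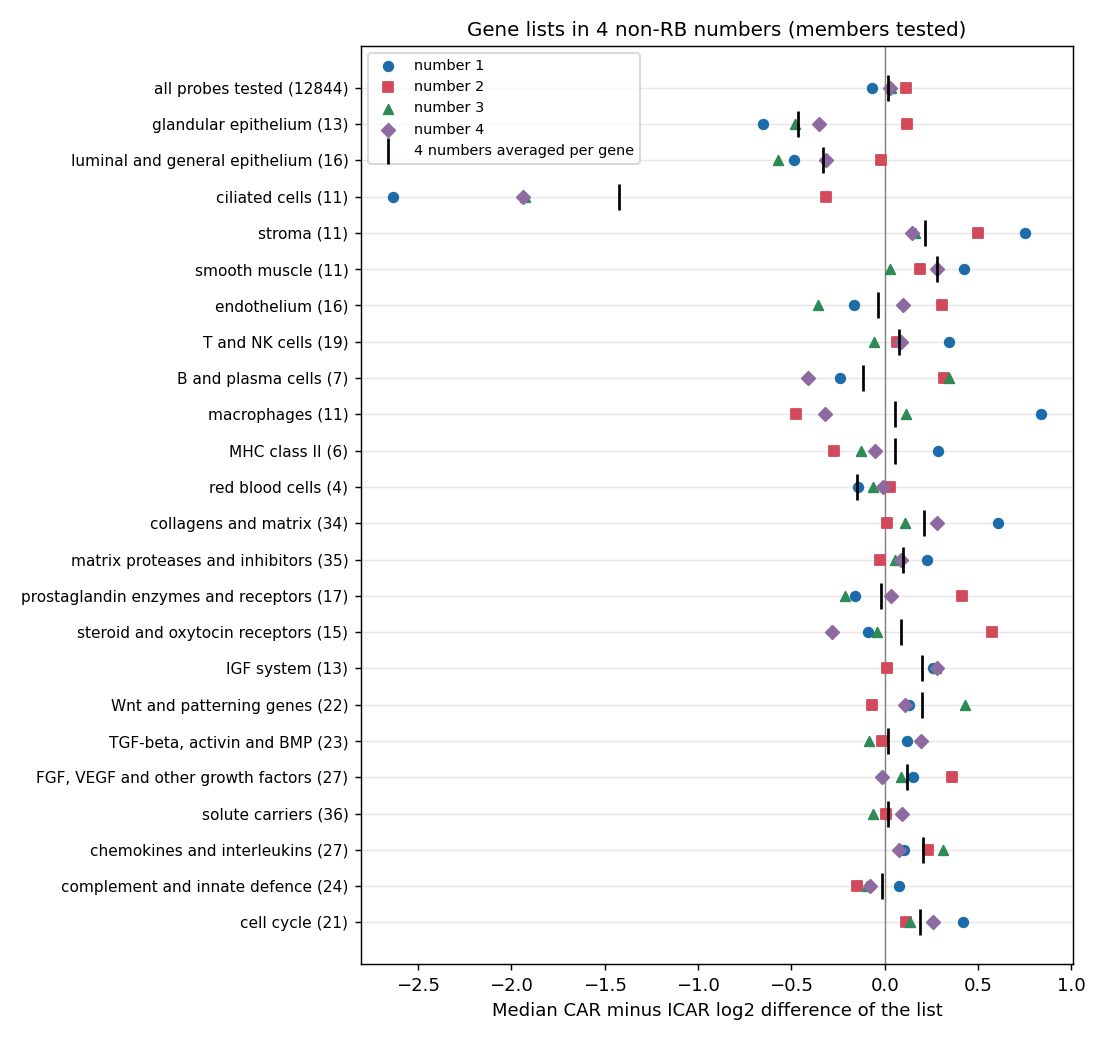
Median CAR minus ICAR log2 difference of each of 23 gene lists and of all probes tested, with a point for each of the 4 non-RB numbers. The ciliated cell list lies farthest from 0 toward ICAR, at -2.63, -1.92 and -1.94 in numbers 1, 3 and 4 and at -0.32 in number 2.

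Each number was left out in turn. In both horns of number 2 CAR and ICAR were on different slides and in different scan sessions, and these cannot be told apart from the number. The contralateral pair of number 1 and the ipsilateral pair of number 3 were split in the same way. The median log2 difference of the ciliated cell list was -2.45 and -0.77 in them. The part of slide and session was not tested. Number 2 is singled out because its differences ran apart from those of the other numbers in the values that are tested, so the calls made without it depend on that choice and are given as a description. Without number 2, 106 probes were called at an adjusted p under 0.05 in limma (n = 3), 0.825% of 12844, 26 of them higher in CAR (0.202%) and 80 higher in ICAR (0.623%). The median log2 difference of the called probes was 1.76 for those higher in CAR and -2.16 for those higher in ICAR. In number 2 itself 46 of the 106 (43.4%) had the same direction, against 39.0% of all probes tested. Its horns differed in this, with 32 of 106 (30.2%) in the ipsilateral horn against 41.7% of all probes tested and 68 of 106 (64.2%) in the contralateral horn, whose CAR array is uneven, against 41.6%. Some of the called probes had a large horn average in number 2, among them RSPH1 at -2.49, CFAP299 at -2.20 and CFAP45 at -1.62 on the log2 scale. These 3 averages rest on the contralateral horn with its uneven CAR array, at -4.95, -5.01 and -3.07. Ipsilaterally the 3 genes were at -0.04, 0.61 and -0.18. By list, the called genes were 6 of 11 ciliated cell markers (TEKT1, SPAG6, RSPH1, CCDC113, LRRC23 and DYDC2) and 3 of 13 gland markers (FOXA2, SPDEF and BPIFB1), all higher in ICAR. ESR2, IHH, AKR1C4 and the mitotic cyclin CCNB1 were called higher in ICAR as well, and IL1A, TNC and the heparin-binding growth factor PTN higher in CAR. The size of the BPIFB1 difference without number 2 was -2.95 ± 0.21 (SE, n = 3) and that of IL1A was 2.37 ± 0.27.

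The genes that follow were also called without number 2 and were chosen after their values were seen. The serine protease PRSS16 was at -3.82 ± 0.32 (SE, n = 3) without number 2 and at 0.82 in number 2. AQP4, a water channel, was at -2.20, HSD17B13, a lipid droplet dehydrogenase, at -2.53, S100G, a calcium-binding protein also called calbindin D9k, at -1.55, and the dynein assembly factor DAW1 at -2.71. On the CAR side the muscarinic receptor CHRM2 was at 2.07, the basement membrane collagen COL4A6 at 1.87, the gap junction protein GJA1 at 1.71 and the neurotrophin NTF3 at 1.26. Removing number 1, 3 or 4 in place of number 2 left 0 probes called in limma in each case, with 527, 385 and 480 at an unadjusted p under 0.05.

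**Figure D3:**
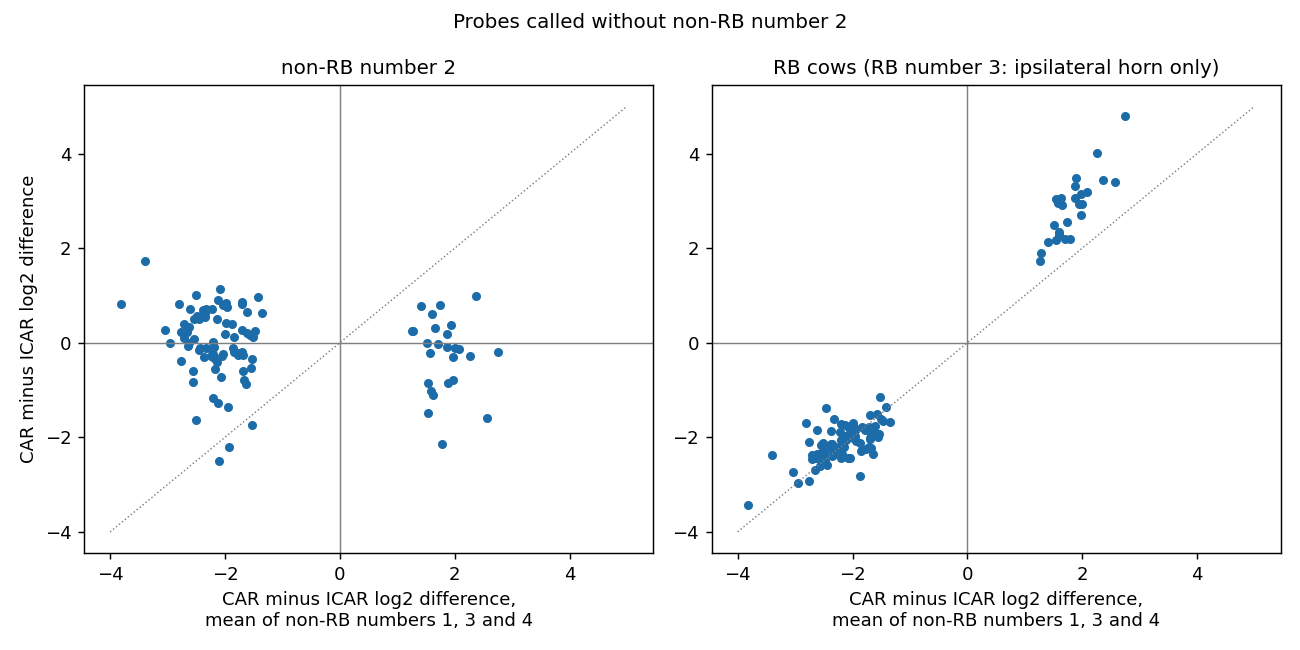
CAR minus ICAR log2 differences of the 106 probes called without number 2, as the mean of numbers 1, 3 and 4 on the x axis, against the value in number 2 and against the mean of RB cows (RB number 3 with its ipsilateral pair only). In number 2 the same direction was seen for 46 of 106 probes, against 39.0% of all probes tested. In RB cows it was seen for 106 of 106, against 69.6% of all probes tested.

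The differences in the 2 horns were set side by side, and their difference was tested. In the ipsilateral horn alone 0 probes were called and 299 of 12808 passed an unadjusted p under 0.05, where the threshold alone would pass about 640. In the contralateral horn, which holds both uneven arrays, 0 were called and 930 of 12404 passed, beside about 620 from the threshold alone. The median of the ciliated cell list was -2.27, 0.03, -0.77 and -1.10 for numbers 1 to 4 ipsilaterally and -2.45, -0.88, -2.74 and -2.71 contralaterally, so each number was lower contralaterally. The test of ipsilateral against contralateral differences called 0 of 12368 probes in limma (smallest adjusted p = 0.999) and 276 passed unadjusted (2.23%). FOXA2 had log2 differences of -2.37, 1.09, -1.62 and -1.06 ipsilaterally and of -3.64, -0.02, -3.17 and -2.27 contralaterally for numbers 1 to 4. Each number was lower contralaterally, and the adjusted p of the horn difference in limma was 0.999.

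**Figure D4:**
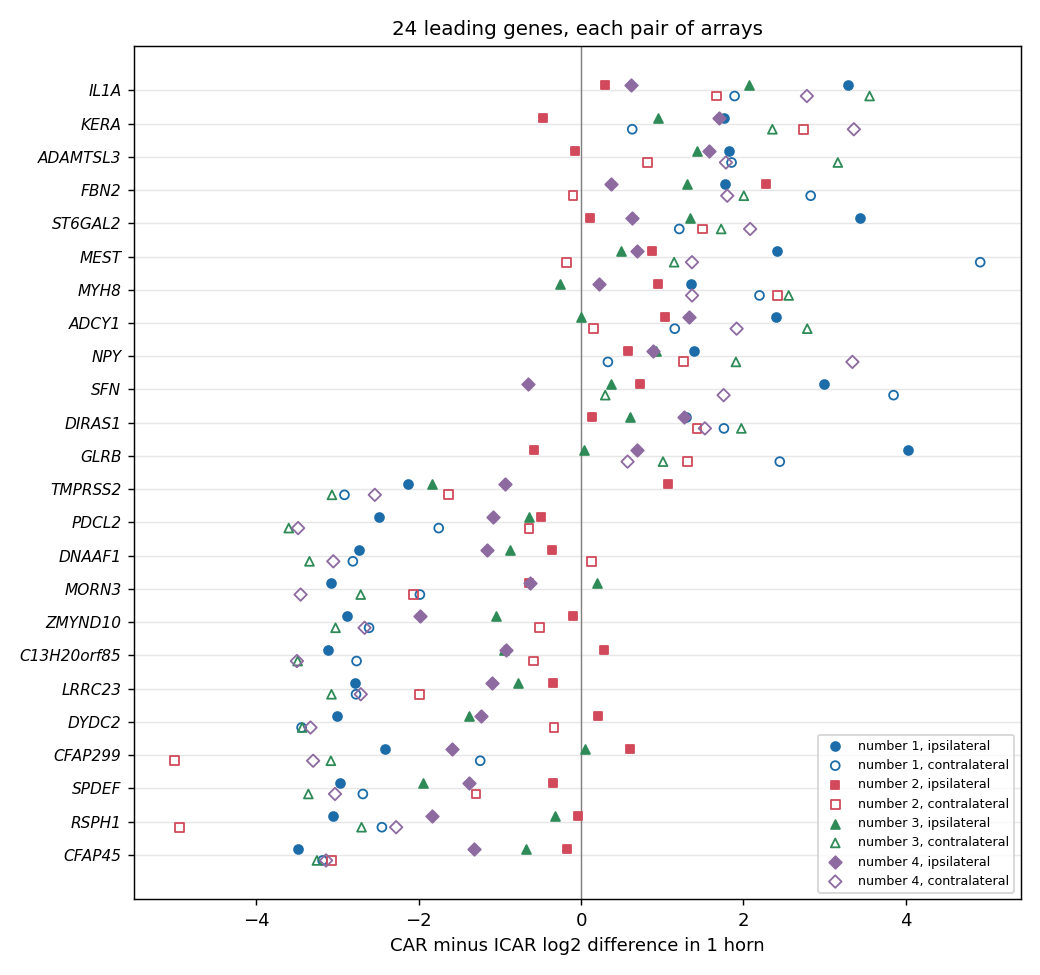
CAR minus ICAR log2 differences of the 24 leading genes in the 8 horn pairs of the 4 non-RB numbers. RSPH1 in number 2 was at -0.04 in the ipsilateral and -4.95 in the contralateral horn.

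RB cows, which share no array with the comparison, gave the same direction for 665 of the 682 probes with an unadjusted p under 0.05 in non-RB cows (97.5%), against 67.1% of all probes tested. With the RB number 3 contralateral pair kept, it was 657 (96.3%) against 64.3%. All 24 leading genes had the same direction in RB cows, and 23 had an adjusted p under 0.05 there in limma, where 2496 of 12837 probes were called (19.4%). With all RB arrays, 0 probes were called in RB cows in limma and 2070 passed an unadjusted p under 0.05. The pair was left out because of its direction in these same values, so the RB calls depend on that choice. Log2 differences in RB cows were -2.05 for RSPH1, -2.60 for SPDEF, -2.97 for BPIFB1, 3.44 for IL1A and 2.48 for FBN2. By list, the RB cows gave a call toward ICAR for 10 of 11 ciliated cell markers, 5 of 13 gland markers and 13 of 16 epithelial markers, and toward CAR for 4 of 11 stroma markers and 12 of 34 collagen and matrix genes.

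The difference between non-RB and RB cows was tested itself and called 0 probes in limma (smallest adjusted p = 0.854), with 655 probes at an unadjusted p under 0.05. With all RB arrays it called 0 as well and 107 passed unadjusted (0.833%). NPY had the smallest unadjusted p of the named genes, with a log2 difference of 1.33 in non-RB and 3.58 in RB cows, a difference of -2.25 with an adjusted p of 0.854 in limma.

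Some probes had only a bound in a zone. Of the probes tested, 12 were not well above background on any CAR array and 9 on no ICAR array. For 9 of the 12 the ICAR level exceeded the lowest detectable level. On average over the numbers ANKS4B, an epithelial scaffold protein of the brush border, was at least 1.94-fold higher in ICAR (adjusted p = 0.625 in limma). Its log2 difference in number 2 was 0.23, toward CAR. C3H1orf87, an uncharacterized gene, was at least 1.52-fold higher in ICAR (adjusted p = 0.517 in limma). The bound is the ICAR mean set against the lowest signal among probes well above background on the CAR arrays.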

How the data were processed

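RNA of 32 endometrial samples was hybridized with Cy3 to a custom bovine Agilent array, and 16 of these samples, from non-RB cows, were compared here. The authors extracted spot intensity with Agilent Feature Extraction 9.5, which subtracted background, and the files hold the processed intensity. The values used here are on a log2 scale, from a table that the authors deposited beside these files, and equal log2 intensity minus the 75th percentile of the array plus a small constant per array. Flags and well-above-background calls came from the scanner files. Control spots were left out and outlier-flagged spots counted as missing. A probe was tested when its signal was called well above background by at least 4 arrays of the 16 and it had a difference in all 4 numbers, which left 12844 of 15208 probes, 6521 with a gene symbol, and 476 had at least 1 missing spot.

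The CAR minus ICAR difference was taken per number and horn, averaged over the horns, and tested against 0 with limma 3.58.1 (lmFit, eBayes) in R 4.3.3, with Benjamini-Hochberg adjustment over all probes tested and a threshold of 0.05. An exact sign test of 4 numbers cannot go below p = 0.125. The p-values measure only the spread between these samples.

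Genes were named by a rule: the 12 with the largest difference in each direction among those with a symbol, the same direction in all 4 numbers and signal in at least 6 arrays of the higher zone, taken at an unadjusted p under 0.05 since fewer than 24 probes were called; up to 4 genes per direction in each of 23 gene lists; a fixed set of reproductive and cell type genes; and up to 6 genes per test between horns or cow groups. The members and lists were chosen with earlier results of these data known. Of the fixed set, HAND2 had no probe. Symbols came from accessions, gene IDs and names in the files and a RefSeq gene table, and 7855 probes had none.

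Alternatives were no filter, signal on all arrays, quantile and normexp normalization, flagged spots kept, other blocks and covariates, single horns, the removal of a number or of arrays, and a methods' t-test. The scripts were tested on simulated data. The number of arrays limits the precision.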

Additional observations from a re-analysis of the deposited data

Results flagged for a closer look

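With 4 numbers, 126 values were screened for a single number far from the others. Of them 9 exceeded Dixon's critical value, which chance passes in about 5%. The count is not far from that share, and the values are not independent, since some named genes are also list members. Of the 9, 6 were number 2 and 3 were number 1. Number 1 stood apart with log2 differences of 3.42 for SFN, 3.2396 for GLRB and 2.1617 for LOC100848815, and its ICAR contralateral array was uneven. Number 2 stood apart with -0.566 for PDCL2, 0.0004 for BPIFB1, 0.3999 for AKR1C4, 1.6741 for SLC38A4 and 0.0429 for SLC35A3, and with a median of 0.0127 for the IGF system. For all of these but SLC38A4 the difference of number 2 was the one nearest to 0 or of the other sign. Their causes were not tested.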

How the results depend on the processing

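With all 4 numbers, 0 probes were called in limma, and most alternatives also called 0. More were called with the slide as a block (4), the scan session as a block (1), pairs on a single slide only (351), and without number 2 and the uneven arrays (161). The slide and session blocks had no term for the number and counted the 2 horns of a number as separate samples. The pairs on a single slide hold none of number 2. Leaving out a number gave 0 to 106 called, the 106 without number 2. The count at an unadjusted p under 0.05 was 682. It was 350 after normexp, of which 24.3% were higher in CAR against 49.7%, 197 in the methods' t-test on horn averages, 263 with trend and robust, 299 in the ipsilateral horn, 226 with a fold of 2, 1264 with the slide block, 1137 with the session block, 2435 for pairs on a single slide, 1119 with a shared spread of all numbers without the RB number 3 contralateral pair, and 1847 without number 2 and the uneven arrays. Leaving out a number gave 385 (number 3) to 1474 (number 2). The causes were not tested. Leaving out each number was planned, but the attention to number 2 came after seeing the data. The removal of number 2 together with the uneven arrays, of the ipsilateral pair of number 2, and of the RB number 3 contralateral pair were also chosen then, as was the count at an unadjusted p.

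With no replicate block, 243 probes passed unadjusted and 0 were called. With the number as replicate block over 16 arrays, 1145 passed and 0 were called, with a smallest adjusted p of 0.108. The labels do not state that a number is a cow. Arrays of a number deviated from their zone and horn mean with a mean correlation of 0.383, over 0.1 in 20 of 24 pairs, the CAR and ICAR arrays of a number and horn with 0.359, over 0.1 in 5 of 8 pairs and lowest at -0.102, and arrays of different numbers with -0.124.

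Normexp moved the median of all probes by -0.108. It turned the log2 difference of ADCY1 to -0.0301, NCS1 to -0.155 and IGCGAMMA to -0.0434, and IGF2 was at -0.0178 in the ipsilateral horn. The median of the epithelial list was -0.58 in the contralateral horn.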
